A study of Mus musculus with 3 samples.

Results

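Occupancy by HDAC3 and KLF4 was examined at 10 genes of acylceramide synthesis in mouse embryonic epidermis: Sptlc1, Sptlc2, Degs2, Elovl1, Elovl4, Slc27a4, Cyp4f39, Cers3, Pnpla1 and Abhd5. A peak belonged to a gene when an end of that gene was the nearest end of any protein-coding gene (GRCm38), or when the peak was centred within 1 kb of an end of it. The rule gave 57 of the 57936 HDAC3 peaks and 82 of the 47155 KLF4 peaks, and the 1 kb clause added none. The genes are 10 of 21887 protein-coding genes. All 3 chromatin immunoprecipitation sequencing libraries came from dorsal epidermis, collected at E18.5 from embryos of wild-type genotype. They were an HDAC3 precipitation (antibody Abcam ab7030), a KLF4 precipitation (R&D AF3158) and an input with no antibody. Each antibody had 1 library and hence no replicates, so values and counts are given without a test. The number of embryos behind each library is not stated in the labels.

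Acylceramides are lipids of the epidermal water barrier in which a very long fatty acid, hydroxylated at its far end, is joined to a sphingoid base and carries linoleic acid on that hydroxyl group. Serine palmitoyltransferase starts the sphingoid base, elongases lengthen the fatty acid, a cytochrome P450 hydroxylates it, a ceramide synthase joins both parts, and a transacylase adds the linoleate. The products are glucosylated, packed into lamellar granules and rebuilt outside the cell into the lipid envelope of the cornified layer. Loss of several of these genes is known to cause ichthyosis. HDAC3 is a histone deacetylase of the NCoR and SMRT corepressor complexes. KLF4, a zinc finger factor of differentiating keratinocytes, is needed for the barrier.

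Sequencing depth was 56787485 tags for HDAC3 and 61432711 tags for KLF4. The authors used 1 input for calling both lists. The score of a peak is the authors' position-adjusted tag number, and it ranks peaks within a list. Fold over input is the authors' ratio. Intervals on folds and shares are exact Clopper-Pearson intervals at 95% and cover counting error only, since PCR copies are not independent molecules. The input held a median of 4 tags at the HDAC3 peaks and 5 at the KLF4 peaks of the 10 genes, so folds of single peaks are imprecise. As a look at the labelled tissue, Lor and Ivl, genes of the outer epidermis, each had peaks of both factors within 1 kb of an end. Krt1 and Krt10 had 1 KLF4 peak each and no HDAC3 peak there, and Krt5 and Krt14 had neither. Of the genes of other skin cells, Ptprc and Pecam1 had neither, Col1a1 had 1 KLF4 peak and Mlana 1 HDAC3 peak. By nearest end the order differed: Ptprc had 7 HDAC3 and 5 KLF4 peaks and Pecam1 had 11 of each. In the same order of factors, Col1a1 had 2 and 2, and Mlana 1 and 2. Lor had 4 and 5, Ivl 4 and 2, Krt1 2 and 4, and Krt10 3 and 5. Krt14 had 1 and 7, and Krt5 had none. Peaks give no level of a cell type.

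Both factors had peaks at all 10 genes, and at each gene at least 1 HDAC3 peak overlapped a KLF4 peak. With the same assignment, 64.8% of protein-coding genes had HDAC3 peaks, 59.2% had KLF4 peaks and 33.0% had an overlapping pair. HDAC3 peaks numbered from 1, at Slc27a4, to 11, at Abhd5. KLF4 peaks numbered from 1, at Elovl1, to 18, at Abhd5. The highest scores were at Cers3 for HDAC3 (142) and at Cyp4f39 for KLF4 (590).

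Annotated transcription starts were available for all 10 genes, and positions of peak centres are counted from them in the direction of transcription. The 250 bases before the start are shown in RefSeq's GRCm38.p6 sequence for 5 genes: 4 of the 5 genes with a peak over this window, and Sptlc1, whose window held 2 matches to a KLF form but no peak. The fifth gene with a peak over the window, Sptlc2, is not shown because its HDAC3 peak reached only the base farthest from the start. Sequences read 5′ to 3′ on the gene's strand. Capitals mark matches on either strand to GGGTGTG or GGGCGTG, forms of the sequence that KLF factors recognise.
Cers3, chr7:66743254-66743503, plus strand: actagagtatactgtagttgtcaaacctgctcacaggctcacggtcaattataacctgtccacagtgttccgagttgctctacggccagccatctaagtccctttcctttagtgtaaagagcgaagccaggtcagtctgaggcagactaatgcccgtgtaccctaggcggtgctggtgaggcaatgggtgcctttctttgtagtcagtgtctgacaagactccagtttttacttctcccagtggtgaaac
Elovl1, second start, chr4:118429451-118429700, plus strand: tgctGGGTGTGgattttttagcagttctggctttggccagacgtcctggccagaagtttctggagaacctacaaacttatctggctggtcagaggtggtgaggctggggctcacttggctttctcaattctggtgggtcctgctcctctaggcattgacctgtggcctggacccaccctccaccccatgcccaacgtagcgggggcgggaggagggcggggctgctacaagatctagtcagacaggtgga
Pnpla1, chr17:28858161-28858410, plus strand: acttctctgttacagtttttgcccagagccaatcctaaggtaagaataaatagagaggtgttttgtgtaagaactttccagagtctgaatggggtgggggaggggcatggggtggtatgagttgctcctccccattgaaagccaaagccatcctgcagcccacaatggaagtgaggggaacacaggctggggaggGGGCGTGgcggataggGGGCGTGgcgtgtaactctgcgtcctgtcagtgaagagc
Elovl4, chr9:83806306-83806555, minus strand: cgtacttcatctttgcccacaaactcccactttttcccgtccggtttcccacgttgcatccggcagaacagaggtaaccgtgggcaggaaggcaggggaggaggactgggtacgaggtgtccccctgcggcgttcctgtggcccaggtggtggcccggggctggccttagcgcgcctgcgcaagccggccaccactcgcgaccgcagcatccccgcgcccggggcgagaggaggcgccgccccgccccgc
Sptlc1, chr13:53377362-53377611, minus strand: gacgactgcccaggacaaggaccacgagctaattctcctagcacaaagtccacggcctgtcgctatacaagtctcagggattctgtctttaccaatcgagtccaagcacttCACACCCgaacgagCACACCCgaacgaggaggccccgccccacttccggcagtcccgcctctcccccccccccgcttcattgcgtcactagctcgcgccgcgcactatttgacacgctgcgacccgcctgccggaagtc

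The 3′ part of the Cers3 sequence lay under peaks of both factors and held neither KLF form. Peaks of both factors also covered the 3′ part of the Elovl1 sequence. Its single GGGTGTG, from -246 to -240, was outside both peaks, while 2 GC boxes (GGGCGG), from -48 and from -37, lay inside them. Pnpla1 had GGGCGTG from -55 and from -39. The copy from -39 lay within its KLF4 peak, which also covered part of the copy from -55. An HDAC3 peak reached into the 5′ part of the Elovl4 sequence, which had no KLF form and 2 GC boxes near the start. Sptlc1 had CACACCC, the reverse complement of GGGTGTG, from -139 and from -125, and its nearest KLF4 peak was centred at -2197. Of the other members, Cyp4f39 had a GGGCGTG from -80, and GC boxes were found at 7 of the 10 genes. The window before the first start of Elovl1, not shown, held a GGGTGTG from -132 and 5 GC boxes without a peak over it. In 32817 windows of the same length before annotated starts, GGGTGTG was found in 6.93%, GGGCGTG in 7.54% and GGGCGG in 32.7%. TGANTCA, the AP-1 sequence, was found in 6.75% of windows and in none of the members'. Each motif was searched on both strands, no KLF form shared a base with a GC box in these genes, and the bases after the start were not searched. A match is a description of the letters and not a measured site.

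Within 1 kb of a start, HDAC3 had peaks at Elovl1, Elovl4, Cers3 and Sptlc2, and KLF4 at Elovl1, Cers3, Pnpla1 and Slc27a4. The shares, 40.0% for each factor (12.2 to 73.8%), stood beside 15.9% for HDAC3 and 21.3% for KLF4 among 17492 protein-coding genes with a start, and both of these lie within the interval. Both factors were at the start of 2 genes, Elovl1 and Cers3, against 9.06% of genes. When either annotated end of a gene was taken, HDAC3 was found at 3 of 10 genes (30%, 6.67 to 65.2%), which were Elovl4, Slc27a4 and Sptlc2, against 18.9% of genes. KLF4 was found at 4 of 10, Cyp4f39, Pnpla1, Slc27a4 and Degs2, against 23.1%. Slc27a4 alone had both, against 10.3% of genes. Just inside the 1 kb limit was the KLF4 peak 661 bp inside the last base of Cyp4f39, and just outside it was the KLF4 peak of Abhd5 centred at -1044, with a score of 82.

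**Figure D1:**
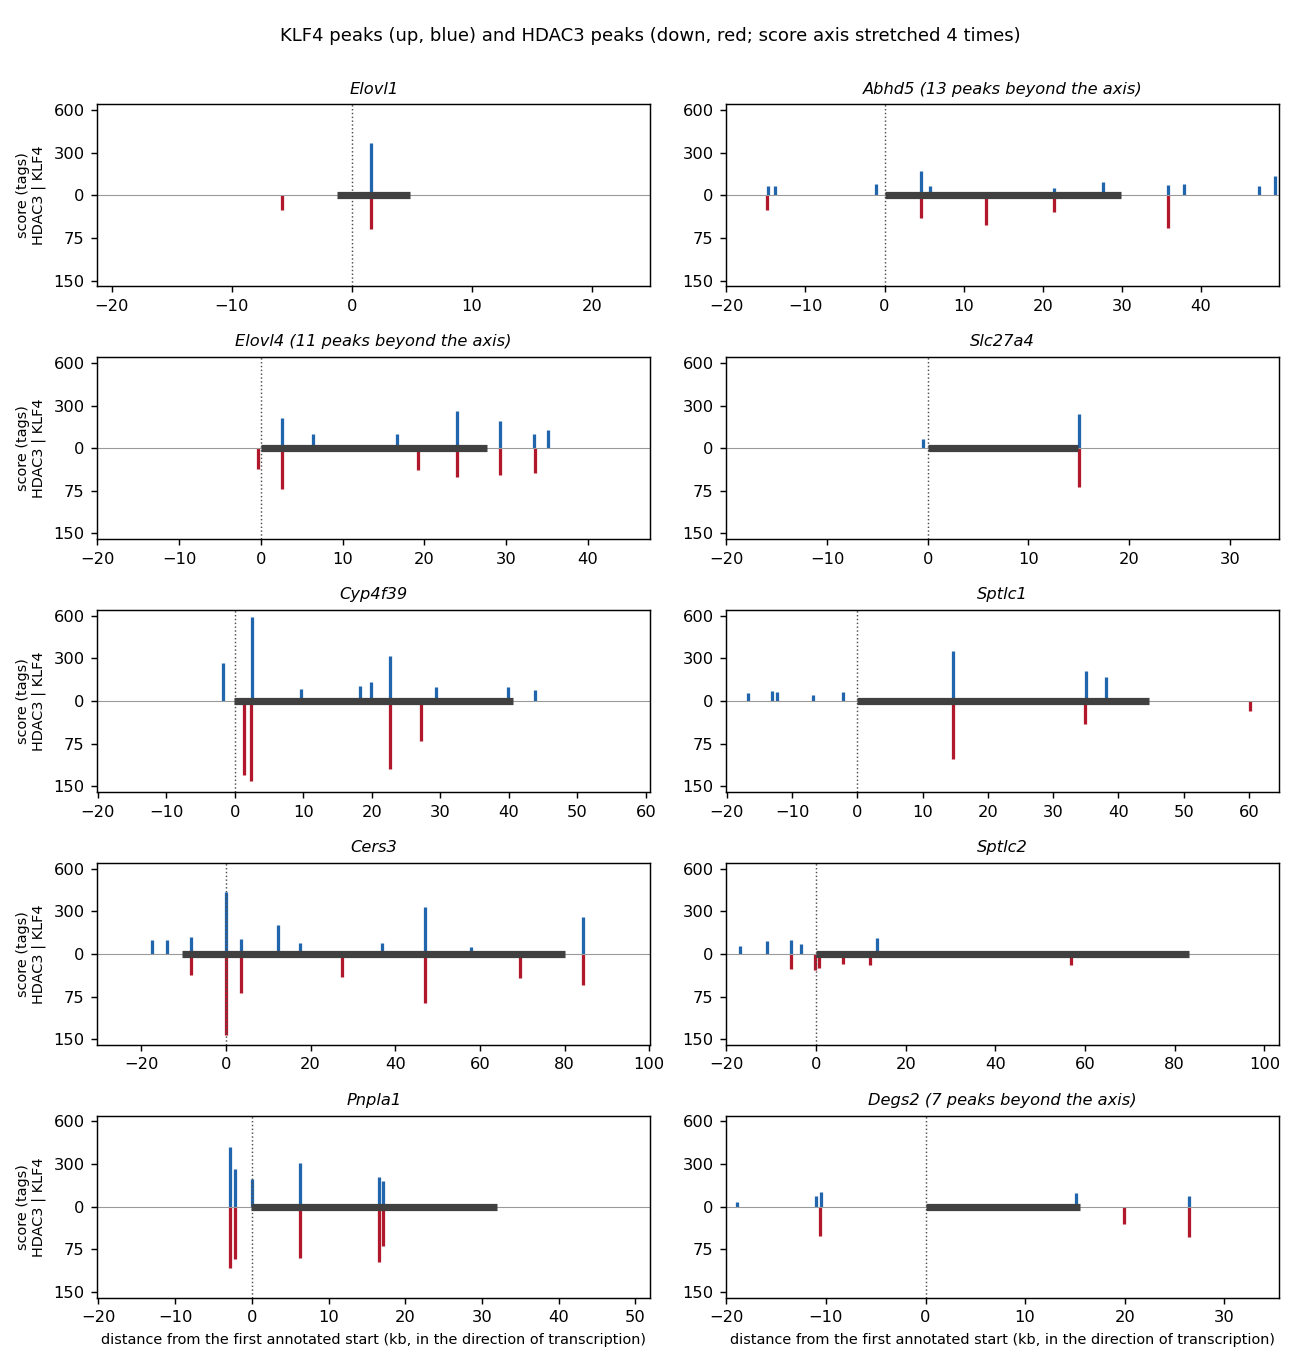
Each panel plots the peaks of 1 gene by distance from its first annotated start (kb, in the direction of transcription), with KLF4 scores upward (tags) and HDAC3 scores downward on an axis stretched 4 times; the dark bar is the gene in the gene table. Peaks far from the gene lie beyond the axis and are not drawn, and the panel's title gives their number. For Elovl4 they include the highest peak of each factor. The peaks of Cers3 and Elovl1 coincide at a start, and those of Slc27a4 coincide past the last base. The highest pairs of Cyp4f39 and Sptlc1 lie inside the genes.

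Sptlc1 and Sptlc2 encode the catalytic core of serine palmitoyltransferase, the first enzyme of the pathway. Their occupancy differed in score. Sptlc1 had 3 HDAC3 and 8 KLF4 peaks, and its strongest pair lay inside the gene at +14630 and +14628 (chr13:53362639-53362823 for HDAC3), with centres 2 bp apart. There HDAC3 scored 102 with 10.8-fold enrichment (5.10 to 27.2) and KLF4 scored 350 with 24.7-fold enrichment (11.9 to 61.8). A second pair at +34946 and +34970 scored 40 for HDAC3 and 214 for KLF4, and a KLF4 peak of score 170 stood alone at +38028. The 5 KLF4 peaks upstream of the gene scored 41 to 69, and the remaining HDAC3 peak, past the last base, scored 17.

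Sptlc2 had 6 peaks of each factor, and none of them reached the highest decile of scores in its list (a score of at least 53 for HDAC3 and 173 for KLF4). Its HDAC3 peaks scored 17 to 29. A pair of them flanked the start at -342 (29) and +616 (24), with 7.83-fold (1.99 to 67.8) and 4.73-fold (1.47 to 24.3) enrichment, and no KLF4 peak was centred closer than 2934 bp to the first of these. The highest KLF4 peak, of score 111, was at +13598. The only overlap of the factors was 11 bp apart upstream, at -5674 and -5663, with scores of 26 and 97.

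Degs2 encodes a desaturase and hydroxylase that forms phytoceramides. It had 8 HDAC3 and 7 KLF4 peaks with 4 overlapping pairs. The last part of Degs2 lies within the span of the gene Evl (chr12:108554681-108688516), and 5 of the HDAC3 and 4 of the KLF4 peaks assigned to Degs2 lay inside Evl, so assignment between the genes is uncertain. Upstream of Degs2 and outside Evl, a pair at -10555 and -10524 scored 51 for HDAC3 and 107 for KLF4, the highest KLF4 score at this gene. The nearest end of any gene to this pair was that of a noncoding gene. That also held for the other peaks of Degs2, except the KLF4 peak 391 bp inside its last base. The highest HDAC3 score, 54 at +26438, was in Evl beside a KLF4 peak of score 78 whose centre was 4 bp away. The KLF4 peak 391 bp inside the last base of Degs2 scored 97 (11.1-fold, 4.19 to 41.5), and the nearest HDAC3 peak was 4789 bp away. The other pairs, also in Evl, scored 32 for HDAC3 beside 77 for KLF4 and 41 beside 88.

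Elovl1 and Elovl4 encode fatty acid elongases, of which Elovl4 makes the longest chains. Elovl1 had a single KLF4 peak, and it lay on the second annotated start at +11 (chr4:118429620-118429804). It scored 372, rank 478 in the list, with 27.1-fold enrichment (13.0 to 67.7). The HDAC3 peak at -7 scored 60 with 6.08-fold enrichment (2.83 to 15.6). The KLF4 score was 6.2 times the HDAC3 score there, the highest such ratio among the 34 pairs. The other HDAC3 peak, of score 26, was at -5851 from the first start.

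Elovl4 had 10 HDAC3 and 14 KLF4 peaks with 8 overlapping pairs, more pairs than any other of the 10 genes. Inside the gene, the pair at +2621 and +2608 scored 72 for HDAC3 and 211 for KLF4, and the pair at +23975 and +23965 scored 50 and 264. A pair just past the last base, at +29270 and +29255, scored 47 and 193, and the next, at +33533 and +33468, scored 43 and 101. Farther on, 4 pairs lay between +69970 and +85115, where the nearest end of any gene was that of a noncoding gene. They included the highest HDAC3 score of Elovl4, 127 (6.17-fold, 3.51 to 11.9), beside a KLF4 score of 183. The others scored 60, 98 and 35 for HDAC3 beside 177, 167 and 46 for KLF4. The highest KLF4 peak of Elovl4, with a score of 322 and 53.5-fold enrichment (18.2 to 261), stood without HDAC3 at +55938, and the nearest HDAC3 peak was 14104 bp away. The HDAC3 peak at the start, at -290, scored 37 with 5.38-fold enrichment (2.17 to 17.2).

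Slc27a4 encodes a fatty acid transport protein with acyl-CoA synthetase activity. It had 3 peaks, all near an end of the gene. The only HDAC3 peak was centred 154 bp past the last base, with a score of 69 and 11.0-fold enrichment (4.15 to 41.2). A KLF4 peak 33 bp from it scored 243 with 28.8-fold enrichment (11.1 to 107). At the start, KLF4 alone had a peak at -434, with a score of 68 and 5.97-fold enrichment (2.44 to 19.0).

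Cyp4f39 encodes the hydroxylase that acts on the far end of the very long fatty acid. All 4 of its HDAC3 peaks lay inside the gene and in the highest decile of the list, with scores of 71, 119, 130 and 141. The KLF4 peak at +2471 (chr17:32455102-32455286) scored 590, rank 55 of the list, and had 110.1-fold enrichment (37.5 to 535) over 3 input tags. Its HDAC3 partner at +2450 had the score of 141 and 26.9-fold enrichment (10.4 to 99.7). A further pair at +22624 and +22591 scored 119 for HDAC3 and 314 for KLF4. The HDAC3 peaks of 130, at +1381, and 71, at +27189, had no KLF4 peak over them. Upstream, at -1687, a KLF4 peak of score 269 was 3068 bp from the nearest HDAC3 peak. The other 6 KLF4 peaks scored 77 to 133.

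Cers3 encodes the ceramide synthase that takes the longest fatty acids. Its strongest peaks coincided at the annotated start, where the HDAC3 centre was at +7 (chr7:66743419-66743603) and the KLF4 centre at +30 (chr7:66743442-66743626). HDAC3 scored 142 there, rank 152 in the list, with 190 tags in the library against 6 in the input and 15.5-fold enrichment (6.99 to 42.8). KLF4 scored 438, rank 251, with 37.3-fold enrichment (17.0 to 102). The gene table places the first base of Cers3 farther upstream, so this pair lies inside the gene in that table and is counted at the start only with the annotated transcript. Cers3 had 4 further pairs. They were at +46990 and +46995 (86 for HDAC3 and 332 for KLF4), at +3637 and +3638 (68 and 105), at -8204 and -8315 (37 and 122), and past the last base at +84247 and +84271 (55 and 257). KLF4 peaks without HDAC3 reached 206, at +12271, and HDAC3 peaks without KLF4 reached 43, at +69497.

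Pnpla1 encodes the transacylase that adds linoleate, and Abhd5 encodes its cofactor, which also activates lipid droplet lipases. At Pnpla1 all 5 HDAC3 peaks overlapped a KLF4 peak, and all 5 HDAC3 and all 6 KLF4 peaks were in the highest decile of their lists. Upstream, pairs at -2793 and -2817 and at -2175 and -2169 scored 107 and 92 for HDAC3 and 422 and 267 for KLF4. The first of them had 13.2-fold enrichment for HDAC3 (5.53 to 41.4) and 52.4-fold for KLF4 (20.3 to 193). Inside the gene, the pair at +6253 and +6245 scored 90 and 305, the pair at +16614 and +16631 scored 97 and 212, and the pair at +17100 and +17105 scored 69 and 182. KLF4 alone was at the start, at +39, with a score of 194 and 9.41-fold enrichment (5.02 to 19.9).

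Abhd5 had the most peaks and low scores. None of its 18 KLF4 peaks and 1 of its 11 HDAC3 peaks was in the highest decile. Its strongest KLF4 peak, of score 170 (16.1-fold, 6.77 to 50.2), was paired at +4640 with an HDAC3 peak of score 40 at +4602. The strongest HDAC3 peak, of score 58 at +35837, was paired with a KLF4 peak of score 75, and its fold rested on 1 input tag (39.6-fold, 6.91 to 1580). The remaining pairs, at -14861, +21403 and +206554 for HDAC3, scored 25, 29 and 20 for HDAC3 and 65, 49 and 57 for KLF4. For the pairs at -14861, +35837 and +206554, the nearest end of any gene was that of a noncoding gene. The farthest peak lay 176692 bp from the gene's last base, and no test ties a distant peak to the gene it was assigned to.

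**Figure D2:**
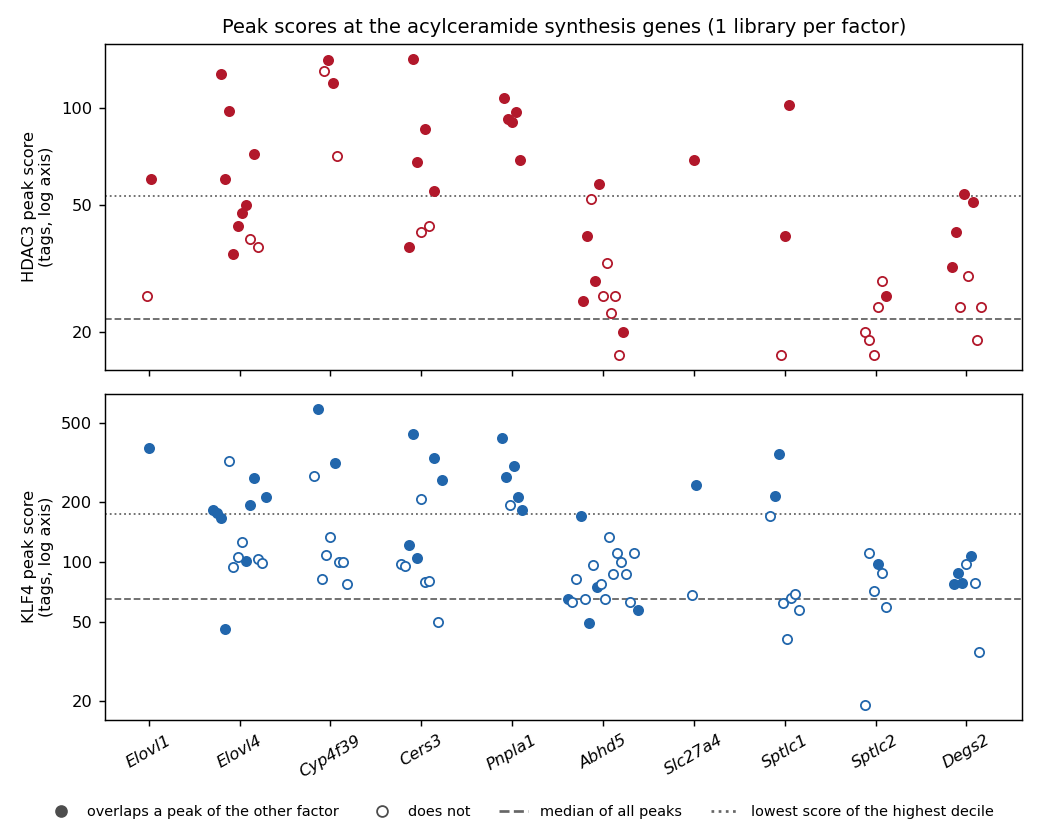
Each point is 1 peak of the gene named on the horizontal axis, with its score (tags, log axis) for HDAC3 in the upper and KLF4 in the lower panel; filled points overlap a peak of the other factor, the dashed line is the median of all peaks and the dotted line the lowest score of the highest decile. All points of Cyp4f39 and Pnpla1 and the only point of Slc27a4 in the HDAC3 panel lie above the dotted line, at scores of 69 to 141. Those of Sptlc2 reach 29.

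Peaks of the 10 genes had higher median scores than the lists as a whole. The median HDAC3 score was 41 (range 17 to 142), against 22 over all HDAC3 peaks, and the median KLF4 score was 100 (19 to 590), against 65. Of the HDAC3 peaks, 22 of 57 (38.6%, 26 to 52.4%) were in the highest decile, which held 10.2% of all peaks because of ties. Of the KLF4 peaks, 23 of 82 (28.0%, 18.7 to 39.1%) were in the highest decile, against 10.1%. Peaks of the same gene are not independent, and 4 genes, Elovl4, Cyp4f39, Cers3 and Pnpla1, held 17 of these 22 HDAC3 and 19 of these 23 KLF4 peaks. At least 1 such peak was held by 9 of the 10 genes for HDAC3, against 15.6% of all genes, and by 7 for KLF4, against 13.4%. The median protein-coding gene had 1 peak of each factor, fewer than most of the 10 genes, so this is not a like comparison. The only such HDAC3 peak lay in Evl for Degs2 and was nearest to a noncoding gene for Abhd5. The median fold over input was 7.67 among the HDAC3 peaks (6.85 over the whole list) and 10.2 among the KLF4 peaks (8.60). Input tags at these peaks were also higher than in the lists, where the medians were 2 for HDAC3 and 3 for KLF4, and their part in the scores was not tested.

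Overlap with the other factor was frequent among the HDAC3 peaks: 34 of 57 (59.6%, 45.8 to 72.4%) shared at least 1 bp with a KLF4 peak, against 25.8% of all HDAC3 peaks. Stronger peaks overlap more often in the whole lists, and all HDAC3 peaks weighted to the score deciles of the 57 gave 57.6%, within the interval. Of the KLF4 peaks, 34 of 82 (41.5%, 30.7 to 52.9%) overlapped an HDAC3 peak, against 31.7% of all KLF4 peaks and 43.6% after the same weighting. That value too lies within the interval. Overlapping HDAC3 peaks had a median score of 59 and the others 26, while overlapping KLF4 peaks had 182.5 and the others 87.5. Over all peaks these medians were 43 and 20 for HDAC3 and 93 and 56 for KLF4.

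The centres of the 34 pairs were a median of 24 bp apart (1 to 153 bp), and 28 of the pairs were within 50 bp. Over all 14962 pairs the median was 31 bp. The ratio of the KLF4 to the HDAC3 score had a median of 2.92 and ran from 1.29, at Abhd5, to 6.2, at Elovl1, against a median of 2.13 over all pairs. Pairs with a higher HDAC3 score mostly had a higher KLF4 score (Spearman's rho 0.76 over the 34 pairs), as a description of pairs that share 1 input and, in many cases, a gene. The scores come from libraries of different antibodies, so their ratio is not a ratio of bound molecules.

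**Figure D3:**
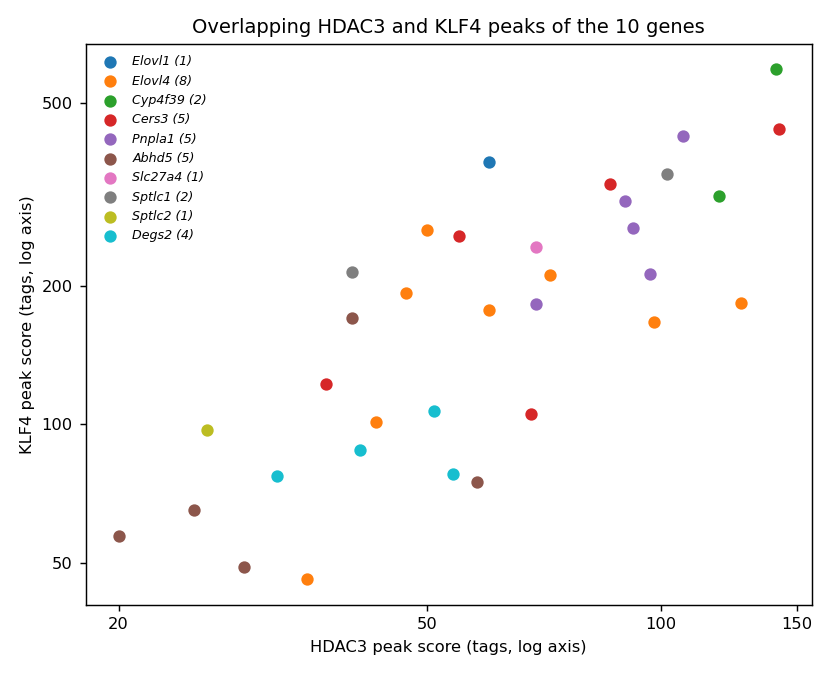
Each point is 1 of the 34 overlapping pairs, by HDAC3 score (horizontal) and KLF4 score (vertical; both in tags, log axes), coloured by gene with the number of pairs in brackets. The pair of Cyp4f39 at 141 and 590 and that of Cers3 at 142 and 438 lie at the upper right, and the pairs of Abhd5, Sptlc2 and Degs2 lie at HDAC3 scores of 20 to 58.

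In the highest decile, 20 of 22 HDAC3 peaks of these genes overlapped KLF4 (90.9%, 70.8 to 98.9%), against 86.5% of all HDAC3 peaks in that decile. Of the KLF4 peaks there, 19 of 23 overlapped HDAC3 (82.6%, 61.2 to 95%), against 68.4%. Both background shares lie within the intervals. The HDAC3 exceptions were the Cyp4f39 peaks of 130 and 71, and the KLF4 exceptions were those of 322 at Elovl4, 269 at Cyp4f39, 206 at Cers3 and 194 at Pnpla1. The HDAC3 peak of 130 was 1090 bp from the KLF4 peak of 590 in the same gene, and it had 21.0-fold enrichment. Near the caller's threshold, 7 HDAC3 peaks and 1 KLF4 peak of these genes were within 4 tags of the least score allowed, and 3 KLF4 peaks had no input tag. The least scores were 16 for HDAC3 and 19 for KLF4. Over all peaks the lower quartile of scores was 18 for HDAC3 and 40 for KLF4, against 26 and 77 for these genes. HDAC3 peaks near the threshold were thus a smaller share here than in the whole list. Peaks without an input tag were not counted over the lists. With the input set at 3 tags, enrichment at the KLF4 peaks without an input tag was 11.0-fold at Abhd5, 12.4-fold at Cyp4f39 and 2.87-fold at Sptlc2. The lower limits of their intervals, which count the error of both libraries, were 8.72, 9.83 and 2.11.

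The stretch of genome nearest to the 10 genes held 6.13 HDAC3 and 8.82 KLF4 peaks per 100 kb, against 2.15 and 1.75 over the genome. None of the 10 genes was at or below the genome's density for either factor. Of all protein-coding genes, at least 37.9% were also above it for HDAC3 and at least 23.0% for KLF4. The HDAC3 density was highest at Elovl1 (18.6 per 100 kb, from 2 peaks in 10760 bp) and at Pnpla1 (11.3, reached by 4.33% of genes). The KLF4 density was highest at Cyp4f39 (14.7, reached by 4.50% of genes) and Pnpla1 (13.6, reached by 5.40%). The lowest densities were at Sptlc1 for HDAC3 (3.44, reached by 37.9% of genes) and at Sptlc2 for KLF4 (5.67, reached by 23.0%). By number of peaks, 0.932% of genes had at least as many KLF4 peaks as Abhd5 and 1.88% at least as many as Elovl4. The stretch nearest to Abhd5 was the longest of the 10 (241332 bp), and its KLF4 density of 7.46 was reached by 16.4% of genes. The KLF4 density of Elovl4, 10.7, was reached by 8.86%. Inside the gene they were assigned to lay 26 of the 57 HDAC3 peaks and 34 of the 82 KLF4 peaks. The same share was not counted over all peaks, so these counts only describe the 10 genes.

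Other genes of the pathway, 73 in 5 lists, were examined by the same 1 kb window at gene ends, with 22 carrying HDAC3, 30 carrying KLF4, 18 carrying both and 39 neither. Over all protein-coding genes the shares were 18.9% for HDAC3, 23.1% for KLF4 and 10.3% for both, and those of the 73 genes were 30.1% for HDAC3 and 41.1% for KLF4. Among 13 genes of sphingoid base and ceramide synthesis, HDAC3 was at 5 (38.5%) and KLF4 at 6 (46.2%), and each of the 5 had both. They were Sptlc3, a further subunit of serine palmitoyltransferase (76 for HDAC3 and 107 for KLF4), Sptssa, its small subunit (52 and 301), Ormdl2, its inhibitor (53 and 96), the ceramide synthase gene Cers5 (23 and 168) and the desaturase gene Degs1 (34 and 210). The related synthase genes Cers1, Cers2 and Cers4 had neither factor there. At Cers5 the peaks lay by opposite ends, HDAC3 at +36018 and KLF4 at -240 from the start. A peak at a gene end can also lie at the end of an adjacent gene.

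Among 29 genes of fatty acid supply, elongation and activation, HDAC3 was at 3 (10.3%) and KLF4 at 8 (27.6%, near the 23.1% of all genes), and 21 had neither. The elongase gene Elovl5 scored 39 for HDAC3 and 87 for KLF4, the dehydratase gene Hacd4 scored 45 and 58, and the stearoyl-CoA desaturase gene Scd1 scored 26 and 49. The Elovl5 scores came from opposite ends, HDAC3 at -204 and KLF4 at +68095, though KLF4 also had a peak within 1 kb of an annotated start. The highest KLF4 score of the list, 95, was at Elovl7, which had no HDAC3 peak there. Among 8 other Cyp4f genes HDAC3 was at 3 (37.5%) and KLF4 at 1 (12.5%). Cyp4f13 had scores of 55 and 41, and Cyp4f15 had HDAC3 alone with a score of 20. None of these approached the scores of Cyp4f39, whose own strong peaks lie beyond the 1 kb window.

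Among 9 genes of lipid droplet lipases and acyl transfer, HDAC3 was at 4 (44.4%) and KLF4 at 3 (33.3%). The acyltransferase gene Dgat2 had scores of 72 and 200 and the droplet coat gene Plin3 39 and 94, while Pnpla3, a relative of Pnpla1, had HDAC3 alone with a score of 42. The largest share was in the 14 genes of downstream processing and export, with HDAC3 at 7 (50%) and KLF4 at 12 (85.7%). All 7 had both factors. Among them were Ephx3, an epoxide hydrolase acting on the linoleate (122 and 320), Abca12, the lamellar granule lipid transporter (73 and 339), Sdr9c7, a dehydrogenase (57 and 221), Sgms2, a sphingomyelin synthase (57 and 113), Ugcg, the glucosylceramide synthase (50 and 214), and Vps33b, a vesicle tethering factor (45 and 58). These lists were chosen with results of the same libraries known, and the counts are descriptions.

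**Figure D4:**
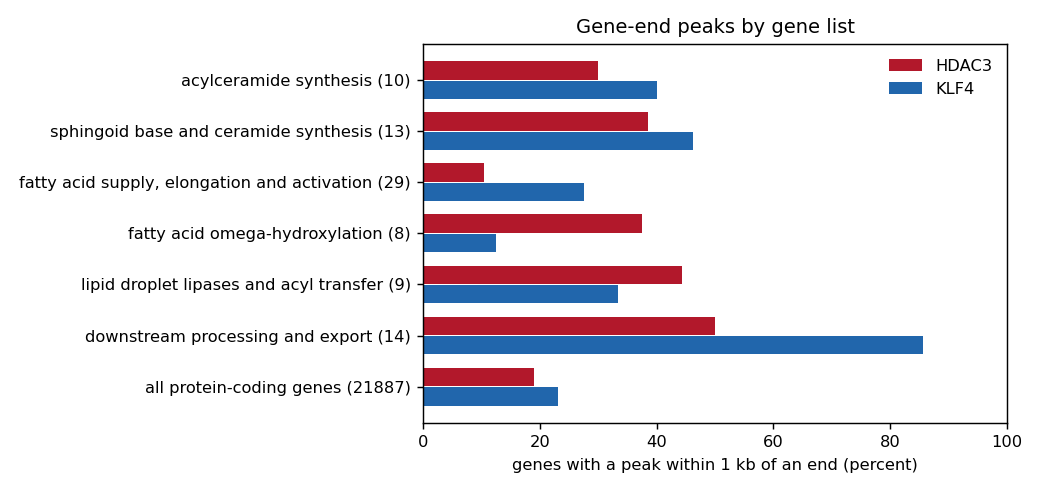
Bars give the share of genes (percent, from 0) with a peak within 1 kb of an end, for HDAC3 and KLF4, in the 10 acylceramide synthesis genes, the 5 lists of other pathway genes and all protein-coding genes, with the number of genes in brackets. Downstream processing and export has the longest bars, 50% and 85.7%, and all protein-coding genes have 18.9% and 23.1%.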

How the data were processed

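HOMER peak lists for 1 HDAC3 and 1 KLF4 library were read. The submitters' processing notes name bcl2fastq, STAR, HOMER and GRCm38.p5, without tool versions. Per the file headers, peaks of 185 bp needed 4-fold more tags than the shared input and than the surrounding 10 kb, at a false discovery rate of 0.001. The deposited tag signal is normalised by the authors to 10000000 tags, so library tags were recovered by rescaling. In peaks under 60 tags, 99.5% (HDAC3) and 100% (KLF4) of recovered tags were whole within 0.1. The score, the fold ratio over input or local region, the p-value and the focus ratio, a fraction, are the authors' deposited values, and the p-value was not used.

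Peaks were placed on RefSeq tables of GRCm38.p6 (49943 genes, 21887 protein-coding), whose promoter table gave starts and strand for 17492 protein-coding genes. Peaks off the assembled chromosomes were left out, leaving 57920 and 47140. Peaks overlapped when they shared at least 1 bp. Counts used Python 3.11.15, pandas 2.3.3, numpy 2.4.6 and SciPy 1.17.1, and were tested on simulated peaks. All 10 genes were named, each with its highest peak of either factor, its peaks near an end and its pairs (the less prominent as ranges). Other pathway genes were named when both factors were at an end or when among the 2 highest of their list. One gene that meets this rule is not reported here. The members and lists were chosen with earlier results of these data known, and the start window after seeing the reference tables.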

Additional observations from a re-analysis of the deposited data

How the results depend on the processing

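Counts at gene ends depended on the window. At 5 kb HDAC3 was at 9 of the 10 genes, KLF4 at 10 and both at 9, against 46.2%, 46.0% and 30.7% of all protein-coding genes, and the other pathway genes numbered 48 for HDAC3 and 46 for KLF4. Both factors were at 3 genes at 2 kb (16.4% of all genes) and at 2 with the start window (9.06%). With peaks of at least 8-fold enrichment only, HDAC3 was at the end of 1 of the 10 and 10 of the other 73 pathway genes, against 6.76% of all genes, and the 10 genes had 26 HDAC3 and 52 KLF4 peaks. When noncoding genes and pseudogenes could also be nearest, 33 HDAC3 and 51 KLF4 peaks were left. These settings admit more or fewer peaks by construction. Of 48 alternatives to 9 results, the other 35 gave counts within 1.5 times the value reported or shares within its interval, and every alternative share of overlap was among these. No paired analysis was possible because each antibody had 1 library. Low input tags limit the precision of folds, and no replicate shows how scores would vary.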
